A study of Rattus norvegicus with 10 samples.

Results

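The collagen genes of the trigeminal ganglion (TG) were examined as a family, since they are the structural genes of the dural and leptomeningeal covering of the ganglion and of the sheaths around its nerve bundles. Membership was set by name, as every gene with the symbol Col, a number, the letter a and a number. The family itself was chosen with earlier results of these data known. Of 15507 genes with a symbol on the arrays, 21 were collagen genes, read by 31 of 30367 probes, and 23 further collagen symbols of the RefSeq gene table were not matched to a probe and are not analysed here, among them *Col4a2*, *Col5a2*, *Col6a1* and *Col6a3*.

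The RNA came from 5 naive male Wistar rats and 5 male Wistar rats of the oral ulcerative mucositis (OUM) model, with 1 array per rat. In the OUM rats, filter paper wetted with 50% acetic acid had lain on the lip-side mucosa below the lower incisors for 30 s under anesthesia, and the TG was taken on day 2. The naive rats, which the sample labels call Control, were anesthetized only, and the labels give no genetic modification and no age. Whole ganglia of both sides were used after perfusion with saline, so all 3 divisions of the ganglion entered each sample although the mucosa treated lies in the territory of the mandibular division alone.

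Collagens are secreted proteins of 3 chains wound into a triple helix. Fibrillar collagens give tensile strength to the epineurium, the endoneurium and the dura, fibril-associated collagens sit on their surface, and network-forming collagens build the basement membranes of Schwann cells, satellite glia, perineurium and vessels. In peripheral nerve the fibrillar chains are made mostly by fibroblasts, and the basement membrane chains by Schwann, perineurial and endothelial cells.

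Signal is given throughout as relative signal, the log2 of the background-subtracted spot brightness minus the log2 of the 75th percentile of its array, so that a difference of 1 is a doubling. Where a gene had several probes, the probe with the highest mean stood for it, and levels of different probes are not set against each other. Testing was limited to features whose probe stood well above background throughout 1 group or both, which held for all 21 collagen genes and for 19271 features in all. Of the 21 genes, 20 were well above background on all 10 arrays. *Col13a1*, a transmembrane collagen, reached that level on 2 of 5 naive arrays and 5 of 5 OUM arrays. The arrays lay on 2 slides, with 4 naive and 3 OUM rats on slide 1 and 1 naive and 2 OUM rats on slide 2. Between 70.9% (naive 4) and 77.2% (OUM 5) of probes were well above background on each array. High signal of pituitary genes was carried by 3 arrays (naive 1, OUM 1 and OUM 2). The mean log2 deviation of the 6 tested pituitary markers was 2.03, 2.12 and 2.44 on them, against at most 0.64 on the other arrays. Values without these 3 arrays are given for *Col11a2*, *Col11a1*, *Col4a4*, *Col15a1* and *Col7a1*, and the part of this tissue in the results was not tested. In RNA of a whole ganglion, fewer cells of a type and less RNA per cell cannot be told apart.

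Markers of meninges and nerve sheath were detected in the RNA. All 14 matched markers of meninges and fibroblasts were well above background on all 10 arrays, among them *Ptgds*, the prostaglandin D synthase of the leptomeninges, *Slc6a13*, a transporter of pial cells, and *Pdgfra*, the receptor of fibroblasts. All 7 matched markers of perineurium and endoneurium, such as the perineurial glucose transporter *Slc2a1* and the tight junction gene *Cldn1*, and all 9 matched Schwann cell markers were also well above background on all 10 arrays. Since several collagens are known best from cartilage, bone and cartilage genes were checked too. The proteoglycan *Acan* of cartilage and the bone gene *Dmp1* were well above background on 0 of 10 arrays and the cartilage gene *Matn1* on 4. The other 5 matched markers, *Bglap*, *Ibsp*, *Sp7*, *Hapln1* and *Chad*, were well above background on all 10 arrays and were tested.

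The promoters of 16 of the 21 collagen genes were held in the RefSeq promoter table (GRCr8), and *Col14a1*, *Col1a1*, *Col2a1*, *Col3a1* and *Col6a2* had no entry. The following windows are shown 5′ to 3′ on the strand of the gene, for the pair of genes with the lowest p values, for *Col1a2*, the partner chain of *Col1a1* in type I collagen, and for the stretch between the head-to-head starts of *Col4a1* and *Col4a2*. Capitals mark matches to TATAAA (reverse complement TTTATA), to CCAAT (reverse complement ATTGG) or to GGGCGG (reverse complement CCGCCC). Overlapping matches were each counted.
Col11a2, chr20:4817649-4817798, minus strand, the 150 bases before the start: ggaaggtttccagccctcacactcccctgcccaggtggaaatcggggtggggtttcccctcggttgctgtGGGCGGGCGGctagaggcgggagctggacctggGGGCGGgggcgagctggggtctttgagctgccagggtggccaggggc
Col18a1, chr20:11473495-11473644, plus strand, the 150 bases before the start: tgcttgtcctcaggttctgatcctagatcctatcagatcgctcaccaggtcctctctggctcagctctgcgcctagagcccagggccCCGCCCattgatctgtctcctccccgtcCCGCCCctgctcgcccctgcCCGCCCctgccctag
Col1a2, chr4:33518307-33518406, plus strand, 100 bases around its TATAAA match: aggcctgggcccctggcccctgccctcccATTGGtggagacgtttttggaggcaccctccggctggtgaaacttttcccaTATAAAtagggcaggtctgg
Col4a1, chr16:84885521-84885596, plus strand, all bases between its start and that of Col4a2: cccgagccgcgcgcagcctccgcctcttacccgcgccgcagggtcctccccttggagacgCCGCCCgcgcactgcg

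The windows differed in the matches they held. The *Col11a2* and *Col18a1* windows held 3 matches each to GGGCGG, the core of the GC box bound by Sp1, and none to TATAAA or CCAAT. The *Col1a2* window held 1 match to CCAAT and 1 to TATAAA, which began 170 bases before the annotated start. Only 76 bases lay between the starts of *Col4a1* and *Col4a2*, the chains that together form the main type IV collagen, and 1 match to GGGCGG stood in them. In the 250 bases before the start, GGGCGG was found in 9 of the 16 collagen promoters and in 30.5% of all 33469 promoters, CCAAT in 4 of 16 and in 34% of all, and TATAAA in 2 of 16 (*Col13a1* and *Col1a2*) and in 12.9% of all. These matches are a description of letters and were not tied to any difference between the groups.

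None of the 21 collagen genes passed the test between OUM and naive rats. By limma with Benjamini-Hochberg adjustment over all 19271 features, 0 collagen genes had an adjusted p under 0.05, beside 2 of all features (0.0104%). At an unadjusted limma p under 0.05, 2 collagen genes, *Col11a2* and *Col18a1*, were higher in OUM rats (9.52% of the 21, against 3.93% of all features) and 0 were lower (against 4.92% of all features). For 0 collagen genes did the 5 OUM arrays all lie above or all below the 5 naive arrays, a separation seen upward for 0.799% and downward for 1% of all features. The log2 fold change, OUM minus naive, was positive for 11 collagen genes (against 45.6% of all features) and negative for 10 (against 54.4%), with a median of 0.011 beside -0.010 for all features, and it ran from -0.33 for *Col9a1* to 0.54 for *Col11a2*. The median size of the log2 fold change, sign left aside, was 0.12 for the collagen genes and 0.067 for all features.

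**Figure D1:**
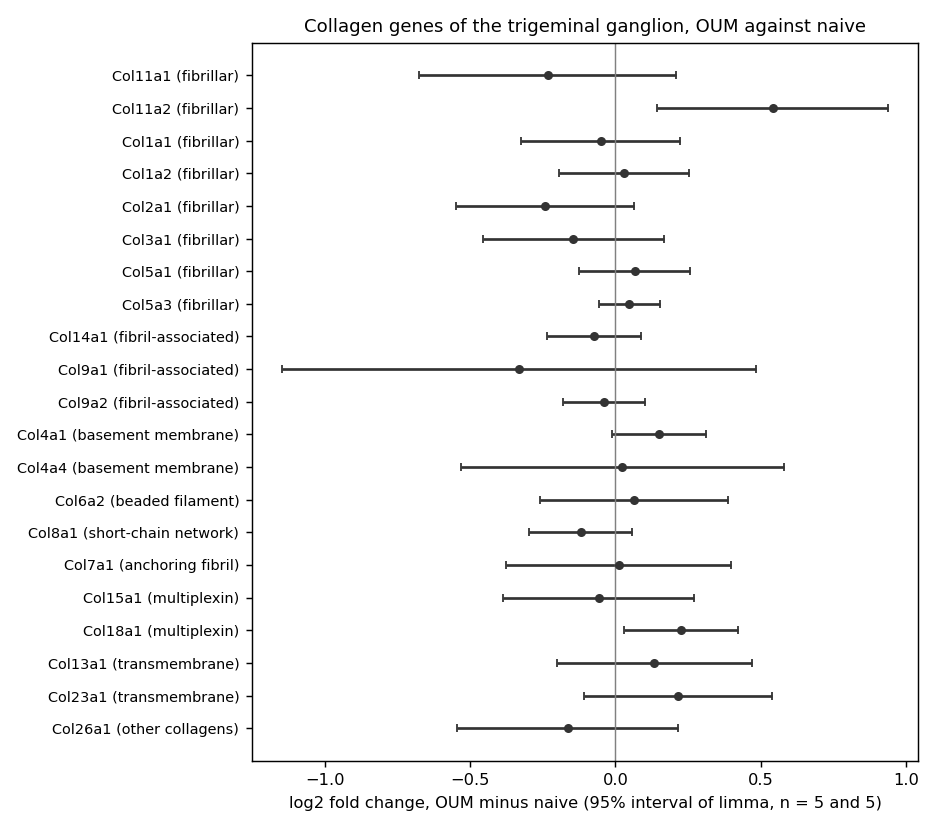
Log2 fold change of relative signal, OUM minus naive, for the 21 collagen genes ordered by class. Points are the limma estimates from 5 arrays a group and lines their 95% intervals, which leave out 0 for *Col11a2* and *Col18a1* before any adjustment for the number of features.

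Among the fibrillar collagens, the chains of type I and type III collagen, the bulk of the collagen in nerve sheath and dura, had group means that differed by less than 1 SD of the rats. The relative signal of *Col1a1* in naive rats 1 to 5 was 3.65, 3.49, 3.51, 2.99 and 3.36, and in OUM rats 1 to 5 it was 3.25, 3.56, 3.15, 3.33 and 3.44. *Col1a1*, the alpha 1 chain of type I collagen, overlapped fully between the groups, and its lowest array was naive 4. Its relative signal was 3.40 ± 0.25 over the naive rats and 3.35 ± 0.16 over the OUM rats (SD, n = 5 each), a log2 fold change of -0.050 with a 95% interval from -0.32 to 0.22, and its second probe gave 0.028. *Col1a2* read 5.06, 4.79, 4.95, 4.71 and 4.90 in naive rats 1 to 5 and 4.68, 5.22, 4.84, 4.86 and 4.96 in OUM rats 1 to 5. *Col1a2*, the alpha 2 chain of the same molecule, was highest in OUM 2 and lowest in OUM 1, so that the OUM rats enclosed the naive rats. The difference between the groups was 0.030, with an interval from -0.19 to 0.25. In naive rats 1 to 5 *Col3a1* gave a relative signal of 2.87, 2.88, 2.81, 2.29 and 2.50, and in OUM rats 1 to 5 of 2.44, 2.76, 2.26, 2.43 and 2.74. *Col3a1*, whose product forms thin fibrils alongside type I collagen, was highest in naive 1, 2 and 3 and lowest in OUM 3 and naive 4. Its log2 fold change was -0.14, with an interval from -0.46 to 0.17 (exact permutation p = 0.349).

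*Col11a2*, a chain of type XI collagen that regulates fibril diameter, had the largest log2 fold change of the family. For *Col11a2* the relative signal was -0.39, -1.29, -1.17, -0.83 and -0.88 in naive rats 1 to 5 and -0.74, -0.21, -0.03, -0.48 and -0.37 in OUM rats 1 to 5. Of the OUM rats, 3 lay above all naive rats, while naive 1 lay above OUM 1 and OUM 4. The means were -0.91 ± 0.35 over the naive rats and -0.37 ± 0.27 over the OUM rats (SD, n = 5 each), a log2 fold change of 0.54 with SE 0.18, which is 1.46-fold. The exact permutation p was 0.0317 and the limma adjusted p 0.494. The difference had the same sign on both slides, 0.60 on slide 1 and 0.40 on slide 2. It was 0.74 without the 3 arrays rich in pituitary genes. The second *Col11a2* probe, also well above background on all arrays, gave only 0.13, with no OUM rat above all naive rats, and the mean of both probes gave 0.34.

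The partner chain *Col11a1* went the other way in its estimates. The relative signal of *Col11a1* in naive rats 1 to 5 was -2.04, -2.34, -2.34, -1.97 and -2.76, and in OUM rats 1 to 5 it was -2.94, -2.65, -2.68, -1.92 and -2.43. The groups overlapped, with OUM 4 the highest of all 10 rats and OUM 1 the lowest. The log2 fold change was -0.23 for this probe, -0.44 for a second probe (exact permutation p = 0.0714) and -0.14 for the third. By limma over all probes the second probe had an unadjusted p of 0.0297 and an adjusted p of 0.523. Without the 3 arrays rich in pituitary genes the first probe gave 0.0090. *Col2a1*, the main fibrillar collagen of cartilage, ranged from -0.64 to -0.05 in naive and from -0.79 to -0.21 in OUM rats, with a log2 fold change of -0.24 (exact permutation p = 0.151). *Col5a1* and *Col5a3*, chains of the type V collagen that starts fibril assembly, had log2 fold changes of 0.066 and 0.047. *Col5a3*, a chain known from Schwann cells, had the narrowest interval of the family, from -0.057 to 0.15.

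**Figure D2:**
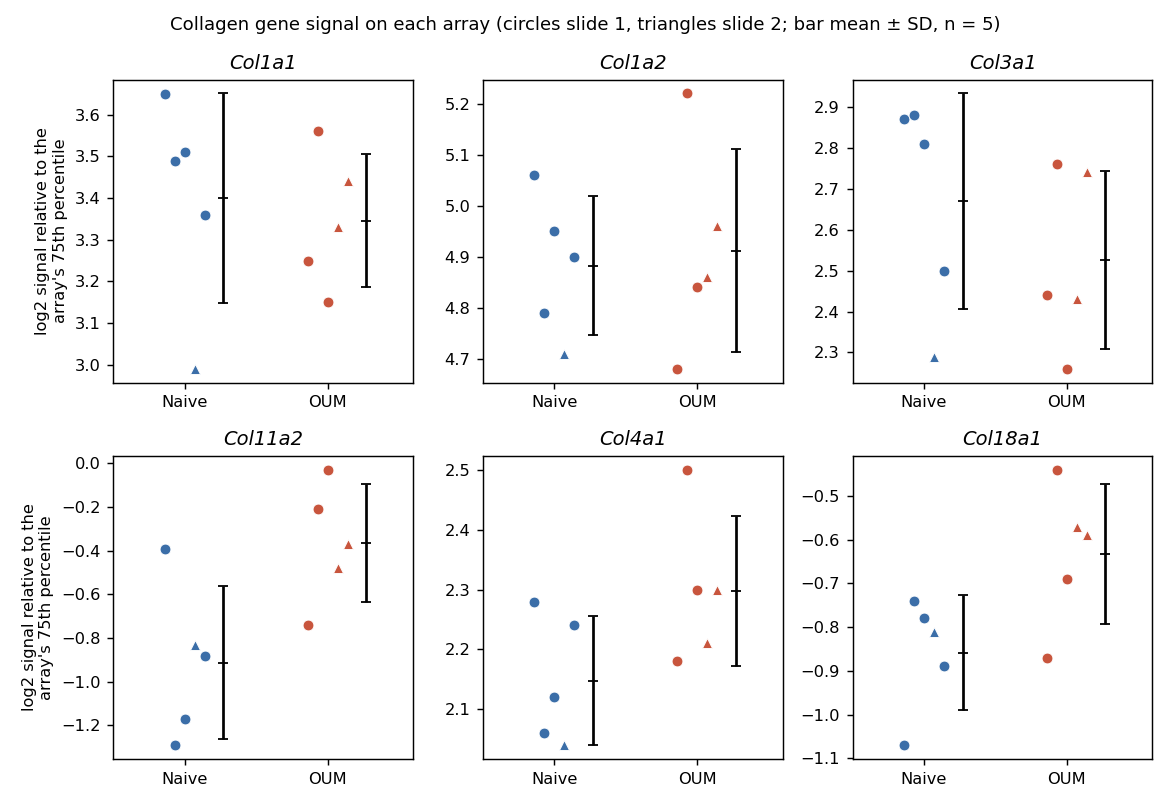
Relative signal (log2, vertical axis, a scale of its own in each panel) of 6 collagen genes in 5 naive and 5 OUM rats, with circles for slide 1, triangles for slide 2 and bars for the mean ± SD. *Col11a2*, *Col4a1* and *Col18a1* had higher OUM means and *Col1a1*, *Col1a2* and *Col3a1* overlapped throughout, and in none of the 6 panels were the groups fully apart.

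The network and basement membrane collagens were represented by few probes. *Col4a1*, a chain of the type IV collagen found in every basement membrane, had values close together. *Col4a1* read 2.28, 2.06, 2.12, 2.04 and 2.24 in naive rats 1 to 5 and 2.18, 2.50, 2.30, 2.21 and 2.30 in OUM rats 1 to 5. Although 3 OUM rats reached above the highest naive rat, the other OUM rats lay inside the naive range. The log2 fold change was 0.15 with SE 0.073 (exact permutation p = 0.0873), it was 0.15 on slide 1 and 0.21 on slide 2, and the second probe gave 0.023. In naive rats 1 to 5 *Col4a4* gave a relative signal of -5.42, -5.53, -4.85, -5.11 and -5.24, and in OUM rats 1 to 5 of -5.26, -6.16, -4.87, -4.81 and -4.91. *Col4a4*, a type IV chain best known from the kidney glomerulus, had its lowest array in OUM 2 and its highest in OUM 4, and its log2 fold change of 0.024 had an interval from -0.53 to 0.58. Without the 3 arrays rich in pituitary genes, OUM 2 among them, it was 0.31 with SE 0.15.

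*Col18a1* and *Col15a1* are the multiplexins, proteoglycan-like collagens of basement membranes whose ends release endostatin and a related fragment. For *Col18a1* the relative signal was -1.07, -0.74, -0.78, -0.81 and -0.89 in naive rats 1 to 5 and -0.87, -0.44, -0.69, -0.57 and -0.59 in OUM rats 1 to 5. OUM 2 to 5 lay above every naive rat, and OUM 1 lay within the naive range. *Col18a1* was -0.86 ± 0.13 over the naive rats and -0.63 ± 0.16 over the OUM rats (SD, n = 5 each), a log2 fold change of 0.23 with SE 0.088, or 1.17-fold (exact permutation p = 0.0476, limma adjusted p = 0.523). The difference was 0.20 on slide 1 and 0.23 on slide 2. The relative signal of *Col15a1* in naive rats 1 to 5 was 2.09, 2.06, 2.15, 1.71 and 1.80, and in OUM rats 1 to 5 it was 1.59, 2.08, 1.56, 2.07 and 2.22. For *Col15a1* the lowest were OUM 3 and OUM 1 and the highest was OUM 5, and the log2 fold change was -0.058, with an interval from -0.39 to 0.27, and 0.019 without the 3 arrays rich in pituitary genes.

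*Col7a1* read -5.99, -6.24, -5.74, -5.81 and -6.01 in naive rats 1 to 5 and -5.83, -5.53, -6.57, -5.89 and -5.92 in OUM rats 1 to 5. *Col7a1*, the chain of the anchoring fibrils that bind epithelial basement membrane to the tissue beneath, had its highest and lowest arrays in the same group, OUM 2 and OUM 3. Its log2 fold change was 0.011, and -0.18 without the 3 arrays rich in pituitary genes. *Col6a2*, a chain of the beaded filaments of type VI collagen that macrophages and fibroblasts of nerve produce, ran from 1.43 to 2.27 in OUM rats and from 1.51 to 1.83 in naive rats, with a log2 fold change of 0.064. *Col8a1*, a short-chain network collagen of vessel walls, gave -0.12.

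None of the fibril-associated and remaining collagens was past the test. In naive rats 1 to 5 *Col9a1* gave a relative signal of -1.86, -2.02, -1.72, -3.35 and -2.42, and in OUM rats 1 to 5 of -2.52, -2.14, -3.58, -2.83 and -1.95. *Col9a1*, a chain of the type IX collagen that coats type II fibrils, was lowest in OUM 3 and naive 4 and covered 3.09-fold among naive rats and 3.08-fold among OUM rats. Its log2 fold change was -0.33 with an interval from -1.15 to 0.49, a second probe with the same array pattern gave -0.35, and the third probe gave -0.041. *Col9a2*, another type IX chain, gave -0.039 and *Col14a1*, which binds decorin-coated fibrils, gave -0.073. The transmembrane collagens *Col13a1* and *Col23a1* gave 0.13 and 0.22, and *Col26a1* gave -0.16.

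The collagen genes varied more between rats of 1 group than most features did. The pooled SD, the spread of relative signal inside the groups, had a median of 0.24 over the collagen genes beside 0.13 over all features tested. This was not particular to collagens, since the median was 0.27 over the meningeal and fibroblast markers and 0.22 over the perineurial and endoneurial markers. Over the Schwann cell markers it was 0.16. Of the 21 genes, 17 lay above the median of all features and 13 above the 75th percentile. The 5 largest pooled SDs were 0.65 for *Col9a1*, 0.44 for *Col4a4*, 0.35 for *Col11a1*, 0.31 for *Col11a2* and 0.30 for *Col7a1*. The smallest was 0.063 for *Col5a3*. The signal of *Col4a4* and *Col7a1* was low, with naive means of -5.23 and -5.96. The SE of their log2 fold changes was 0.25 and 0.17, and 0.13 and 0.068 with normexp background correction. The part of low signal in their spread was not tested. For *Col9a1* the spread depended on the probe, with a pooled SD of 0.66 for the second probe and 0.18 for the third. The SD was larger among OUM rats for 13 genes and among naive rats for 8. *Col6a2* had an SD of 0.34 in OUM rats and 0.11 in naive rats, whereas *Col8a1* had 0.042 in OUM rats and 0.18 in naive rats. These differences in spread were not tested.

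**Figure D3:**
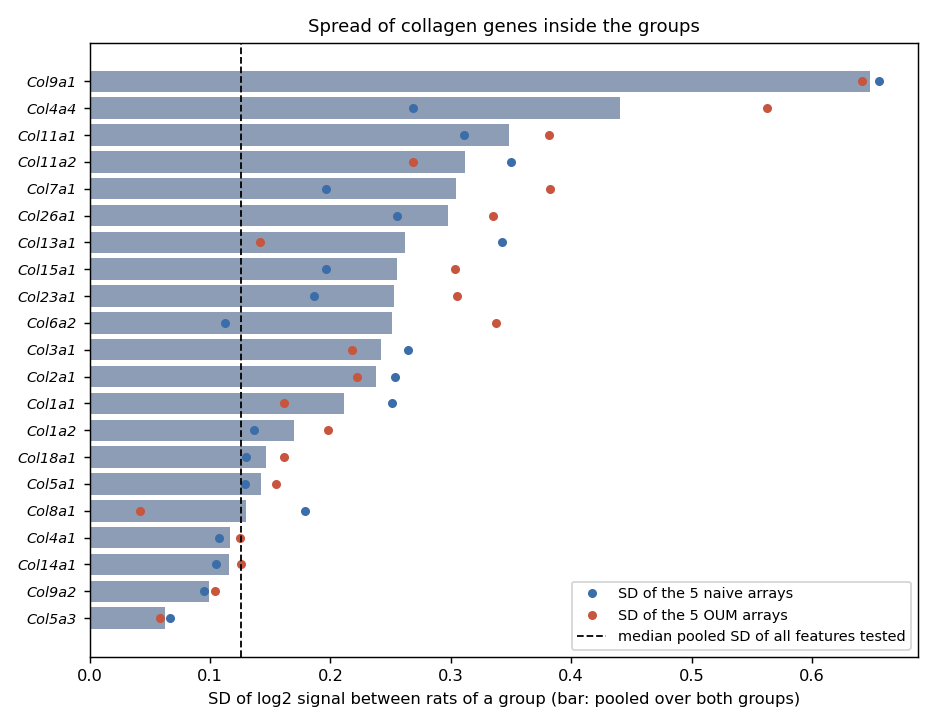
SD of relative signal between the rats of a group for each collagen gene, with bars for the value pooled over both groups, dots for each group of 5 arrays and a dashed line at 0.13, the median pooled SD of all features tested. Bars of 17 genes end beyond the line, led by *Col9a1* at 0.65.

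Many of the collagen genes were low or high on the same arrays. The counts that follow were not made over all features, so whether other genes share the pattern was not tested. Naive 4 also had the lowest share of probes well above background, 70.9%. Naive 4 had the lowest value of its group for 12 of 21 collagen genes, OUM 1 for 11 and OUM 3 for 8. OUM 2 was the highest of its group for 10 genes, naive 3 for 8, and naive 1 and OUM 5 for 7 each. Set against each gene's own mean over the 10 arrays, 5 of 21 genes were above it in naive 4, 2 in OUM 1 and 5 in OUM 3, whereas 16 were above it in naive 3, 17 in OUM 2 and 18 in OUM 5. Members could also part on 1 array, as in OUM 3, where *Col11a2* was at its highest and *Col9a1* at its lowest.

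**Figure D4:**
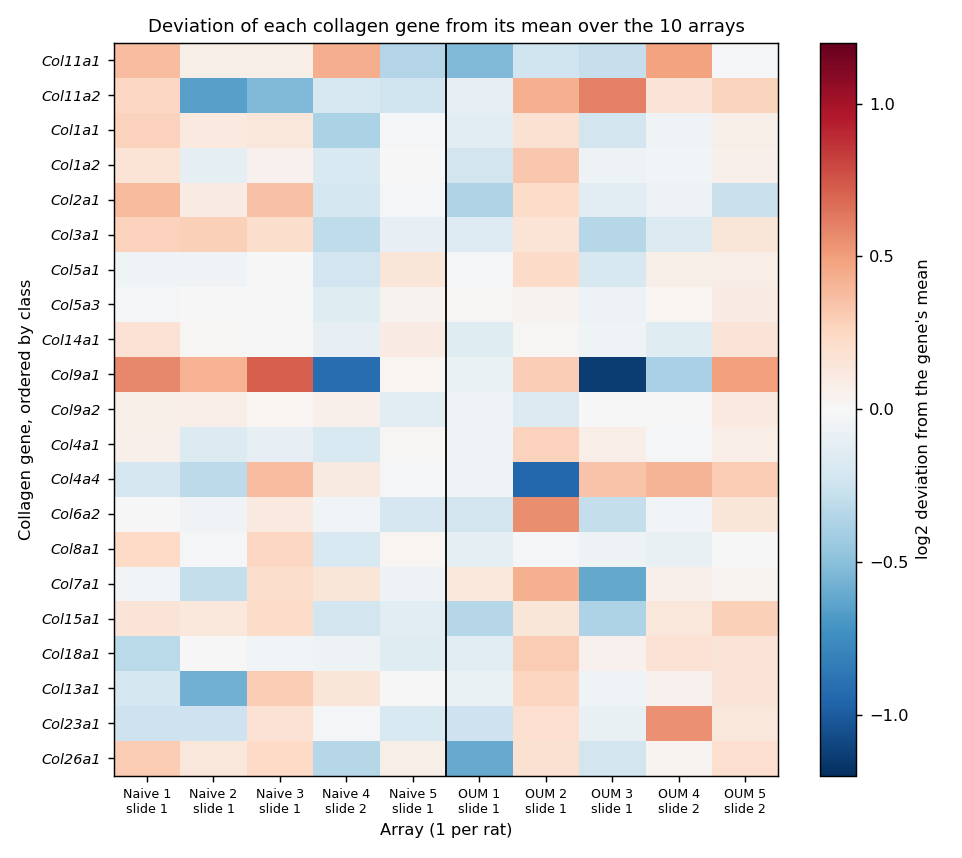
Log2 deviation of each collagen gene (rows, ordered by class) from its own mean over the 10 arrays (columns, 5 naive then 5 OUM), red above and blue below the mean. Most cells are blue for OUM 1, where 2 of 21 genes are above their mean, and red for OUM 5, where 18 are.

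Cell type markers also varied between the arrays. The mean deviation of the 14 meningeal and fibroblast markers was -0.075, -0.25, 0.092, -0.15 and 0.085 in naive rats 1 to 5 and -0.41, 0.19, 0.036, 0.24 and 0.24 in OUM rats 1 to 5. It was low with the collagen genes in OUM 1 and naive 4 and high with them in OUM 2 and OUM 5, but it was above 0 in OUM 3, where 5 of 21 collagen genes were above their mean, and below 0 in naive 1, where 14 were. That of the 9 Schwann cell markers ran from -0.13 to 0.058 in naive rats and from -0.13 to 0.18 in OUM rats. The 7 perineurial and endoneurial markers ran from -0.076 to 0.11 in naive and from -0.27 to 0.12 in OUM rats. Their part in the collagen values was not tested.

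Over the 10 rats, *Col1a1* was set against 14 genes of sheath, vessel and neighbouring tissue, with permutation p values adjusted over the 14. *Col3a1* followed it most closely, with Pearson's r of 0.92 (permutation p = 0.00012, adjusted 0.00168) and Spearman's rho of 0.89 (permutation p = 0.0012, adjusted 0.0168). The r was 0.90 without the arrays farthest from the *Col1a1* median, naive 4 and OUM 3, and 0.95 over the 7 arrays of slide 1. For *Col15a1*, r was 0.78 (permutation p = 0.00735, adjusted 0.0343), rho 0.76 (permutation p = 0.0144, adjusted 0.0506), and r was 0.67 without those 2 arrays and 0.94 on slide 1.

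*Col1a2* gave r of 0.73 (permutation p = 0.0155, adjusted 0.0543) and rho of 0.79 (permutation p = 0.00885, adjusted 0.0506). The relation of *Col5a1* to *Col1a1* rested on the 2 outer arrays, since r was 0.63 with them and -0.012 without them. The meningeal genes *Ptgds* and *Slc6a13* gave r of 0.0045 and 0.083, and the perineurial *Slc2a1* gave -0.39, none with an adjusted permutation p under 0.05. Slide 2 held too few arrays for a value of its own, and all genes on an array share its scaling.

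**Figure D5:**
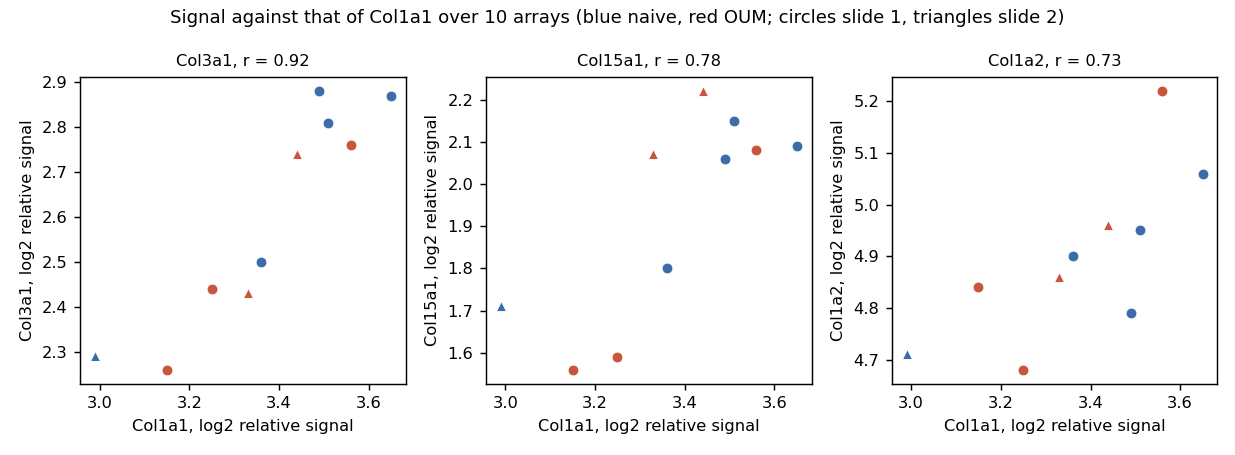
Relative signal (log2) of *Col3a1*, *Col15a1* and *Col1a2* against that of *Col1a1*, 1 point per rat, naive in blue and OUM in red, circles for slide 1 and triangles for slide 2. The points of both groups follow 1 rising band, tightest for *Col3a1* at r of 0.92, and naive 4 lies at the low end of each panel.

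Several estimates had opposite signs on the slides, of which slide 2 held 1 naive rat, naive 4. Of all 10 arrays naive 4 had the lowest share of probes well above background, 70.9%. The OUM arrays of slide 2, OUM 4 and OUM 5, had the highest, 77.1% and 77.2%. The log2 fold change of *Col1a1* was -0.18 on slide 1 and 0.40 on slide 2, that of *Col3a1* -0.28 and 0.30, that of *Col15a1* -0.28 and 0.44, and that of *Col9a1* -0.74 and 0.96. With the slide as a block the median over the 21 genes was -0.017. The difference between slides was not tested.

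The genes that make, bind and control collagen were counted in the same way. Of 18 tested genes for chain modification and folding, 0 passed the adjusted test and 3 were higher and 2 lower at an unadjusted limma p under 0.05, beside 3.93% and 4.92% of all features. *Plod1*, a lysyl hydroxylase, was higher on every OUM array than on any naive array, as were 0.799% of all features, with a log2 fold change of 0.098 (exact permutation p = 0.00794, the smallest possible here, limma adjusted p = 0.520). *Plod3*, another lysyl hydroxylase, gave 0.15, *P4ha3*, a prolyl 4-hydroxylase subunit, 0.22, *Crtap*, a subunit of prolyl 3-hydroxylation, -0.14 and *Sec23a*, which helps load procollagen into transport vesicles, -0.13. *Serpinh1*, the chaperone of procollagen, gave 0.075.

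Of 12 fibril-binding proteoglycans and glycoproteins, 1 was higher (against 3.93% of all features) and 0 were lower (against 4.92%) at that limit. It was *Fmod*, fibromodulin, which binds type I fibrils, with a log2 fold change of 0.41 (exact permutation p = 0.0556) and 4 of 5 OUM rats above all naive rats. *Dcn*, decorin, gave 0.024 and *Lum*, lumican, -0.21. None of 6 genes of propeptide cleavage and cross-linking, 9 collagen receptors and 9 collagen-cleaving enzymes was past that limit in either direction.

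Of 9 tested genes of the TGF-beta pathway, which drives collagen transcription in fibroblasts, 3 were higher (against 3.93% of all features) and 1 was lower (against 4.92%) at an unadjusted limma p under 0.05, and 0 passed the adjusted test. The ligands *Tgfb1* and *Tgfb2* gave log2 fold changes of 0.30 (exact permutation p = 0.0159) and 0.28 (exact permutation p = 0.0238), with 4 of 5 OUM rats above all naive rats for each. *Ccn2*, a target gene of the pathway, gave 0.23 (exact permutation p = 0.0317), and *Smad4*, its shared signal transducer, gave -0.21 (exact permutation p = 0.0159). *Col1a1*, *Col1a2* and *Col3a1*, known targets of the same pathway, gave the values above, -0.050, 0.030 and -0.14. A link between the pathway genes and these collagen values was not tested.

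Markers of the cells around the collagens were read likewise. Of the 14 meningeal and fibroblast markers, 2 were higher and 0 lower at an unadjusted limma p under 0.05, of the 7 sheath markers 1 and 0, of the 9 Schwann cell markers 1 and 0, and of the 12 vascular markers 2 and 0, beside 3.93% higher and 4.92% lower of all features. These were *Cygb* (0.25) and *Slc13a3* (0.25) of meninges and fibroblasts, *Itgb4* (0.18) of perineurium, *Sox10* (0.17) of Schwann cells, and *Cldn5* (0.27) and *Myh11* (0.23) of vessels, with the log2 fold change of each in parentheses. For *Cygb* and *Cldn5* all 5 OUM rats lay above all naive rats, as they did for 0.799% of all features. Of 6 satellite glia markers 0 were higher and 1 lower, *Fabp7*, with a log2 fold change of -0.31. For the tested markers of sensory neurons (7), bone and cartilage (5), pituitary (6), skeletal muscle (4), epithelium (5) and macrophages (6), 0 were past that limit. None of these markers passed the adjusted limma test. The widest spread among the meningeal markers was in *Aldh1a2*, a retinoic acid synthase of meninges (pooled SD 0.49), and *Igf2*, a growth factor of meninges and choroid plexus (0.44). Among the perineurial and endoneurial markers it was in *Krt19* (0.43) and *Ntn4* (0.30).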

How the data were processed

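Total RNA of each TG was labelled with Cy3 and hybridised to 1-colour Agilent rat arrays. The arrays were read on an Agilent scanner and the images digitized with Agilent Feature Extraction 10.7.1.1. The deposited intensity is the processed signal of that software, after background subtraction. The authors' deposited value table, used as an alternative, holds this signal scaled per array, on a linear scale. Here control and outlier spots were left out, spots of a probe averaged, and log2 intensity taken relative to the 75th percentile of the gene spots. Probe accessions were matched to RefSeq symbols (18438 of 30367 probes); the array annotation uses another build, so RefSeq coordinates are given for promoters only. Groups were compared with limma 3.58.1 in R 4.3.3, two-sided, and single genes by an exact permutation test over 252 assignments. Correlations used 100000 permutations. The limma step was tested on simulated data. The members, gene lists and tests were chosen with earlier results of these data known. Genes were named by a rule: type I, III, IV, VI, XV and XXVIII chains, unadjusted limma p under 0.05, the 5 largest pooled SDs, pathway genes with the lowest p and the 2 most variable markers of a list. Genes named beyond it were chosen after their values were seen. Some genes of these lists are not reported here. Alternatives covered normalization, filters, probes, slide, replicate block, test and each array left out.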

Additional observations from a re-analysis of the deposited data

How the results depend on the processing

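Under all 29 alternatives, 0 collagen genes passed the adjusted test, and *Col11a2*, *Col18a1* and *Col4a1* kept a positive sign, with log2 fold changes of 0.34 to 0.74, 0.17 to 0.29 and 0.087 to 0.21. The features past the adjusted test were 2 as reported, 1 with an intensity trend and robust prior and with array weights, 426 on slide 2 alone (1 naive and 2 OUM rats), 0 to 1 with an array left out, and 0 with quantile normalization, median scaling, the 75th percentile over well-detected probes or over probes (chosen after seeing the data), no filter, the mean of probes, the replicate block, Welch's test of the methods, the authors' value table and without the 3 arrays rich in pituitary genes. Collagen genes higher at an unadjusted limma p under 0.05 were 1 on slide 1 (against 4.64% of all features). With an array left out they were 1 to 3 (against 2.73% to 5.76%). They were 3, with *Col4a1* added, with the slide as a block (against 4.72%). The same 3 were higher with the intensity trend and robust prior (against 3.83%) and without the 3 pituitary-rich arrays (against 5%). Slide 2 alone, with 1 naive rat, is left out of these counts. With every probe separate, 1 of 31 collagen probes was lower (*Col11a1*, against 4.99% of all features). Lower genes were 1 with the slide as a block (*Col11a1*, against 6.9%) and 1 on slide 1 (*Col26a1*, against 8.89%). With an array left out, 0 to 2 were lower (against 3.28% to 6.88%). Without naive 5, OUM 2, OUM 4 or OUM 5 only *Col11a2* remained among the higher ones, and without naive 1 *Col4a1* took the place of *Col18a1*. At that limit *Col2a1* and *Col8a1* were lower without naive 4, *Col2a1* without OUM 2 and *Col11a1* without OUM 4. The median log2 fold change was 0.21 on slide 2 and -0.066 to 0.048 with an array left out.

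Signs turned on slide 2 for *Col1a1* (0.40), *Col3a1* (0.30), *Col15a1* (0.44), *Col7a1* (-0.096) and *Col9a1* (0.96), and on slide 1 for *Col1a2* (-0.0098) and *Col4a4* (-0.17). With the slide as a block *Col4a4* was -0.056 and *Col7a1* -0.012. *Col7a1* was also -0.015 with quantile normalization, -0.042 with normexp background correction and with array weights, and -0.18 without the 3 pituitary-rich arrays, where *Col11a1* was 0.0090 and *Col15a1* 0.019. With an array left out, *Col15a1* ran from -0.14 to 0.028, *Col1a1* from -0.15 to 0.012, *Col1a2* from -0.047 to 0.088, *Col4a4* from -0.074 to 0.26 and *Col7a1* from -0.094 to 0.17. The cause was not tested. Replicate numbers did not pair the rats (correlations of -0.092 to 0.33 between same-numbered rats), and with the replicate block 0 features passed the adjusted test. With that block, 2 collagen genes were higher (against 3.56% of all features) and 0 lower (against 3.66%) at an unadjusted limma p under 0.05. Of all features at an unadjusted p under 0.05, 44.4% were higher in OUM rats as reported, 56.2% with quantile normalization, 63.3% with median scaling, 58.5% with the authors' value table, 34.3% on slide 1 and 68.7% on slide 2. The number of arrays limits the precision.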
